A study of Mus musculus with 18 samples.

Results

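Endothelial cells line the vessels and chambers of the heart, and RNA of such cells from the region called LV was compared with RNA of cells from the region called OR. The comparison holds 6 of the 18 samples of the series, 3 libraries of LV and 3 of OR, chosen by their labels alone. All 6 came from wild-type adult male mice kept in homeostasis, that is without injury or treatment, and the other samples are 6 heart libraries from the regions Apex and VS and 6 from liver. The table of counts writes OZ where the sample titles write OR, and the sources used here do not say in full what any region name stands for, how the cells were isolated, or whether libraries came from separate animals. P-values therefore measure only the spread between these libraries, which may be technical.

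Most of the endothelium of heart muscle is capillary, specialised in taking up fatty acids through Cd36, Gpihbp1 and the fatty acid binding proteins. The chambers are lined by endocardium, a distinct endothelium marked by the natriuretic peptide clearance receptor Npr3, and arteries, veins and lymphatics each carry programmes of their own. Endothelial cells answer vascular growth factors through the receptors Kdr and Flt1 with the co-receptor Nrp1, and guidance cues of the Slit and semaphorin families through Robo and plexin receptors. They also carry a cell-autonomous circadian clock and a store of interferon-induced defence genes.

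Total counts ran from 21590400 to 27520396 per library. Levels are given as TMM-scaled CPM, counts divided by a library's effective size. The 6 libraries carried endothelial markers: Pecam1, the adhesion molecule CD31, was at 1660 to 1841 CPM in LV and 1707 to 1883 CPM in OR, and Cdh5, VE-cadherin, at 2436 to 3042 CPM and 2586 to 2871 CPM. Both genes overlapped between the groups (adjusted p = 0.914 and 0.935). Ptprc, which encodes the leukocyte antigen CD45, stayed at or below 1.51 CPM in every library. LV library 1 stood apart from the other 5 on the first principal component, which held 36.3% of the variance of the 500 most variable genes, and LV library 2 stood apart on the second, with 23.6%.

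Of 13098 genes tested, 462 (3.53%) passed an adjusted p of 0.05 in edgeR's quasi-likelihood test, 236 (1.80%) higher and 226 (1.73%) lower in LV. With upper-quartile scaling the split was 289 higher and 180 lower. Most differences were small: the median log2 fold change, always given as LV over OR, was 0.59 among the genes higher in LV and -0.49 among the lower ones, and 26 and 6 genes in the 2 directions reached a log2 fold change of 1. The 3 LV libraries lay entirely above or below the 3 OR libraries for all of the 462 genes, and for 27.9% of all genes tested. With 1 library left out the count lay between 0 (without OR library 3, with 2101 at an unadjusted p under 0.05) and 341 (without LV library 2), and it was 0 when the spread was estimated from all 12 heart libraries, with 1564 genes then at an unadjusted p under 0.05.

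The direction of a gene followed the length of its transcript. Genes higher in LV had a median transcript length of 6530 nt, genes lower in LV one of 1253.5 nt, and all genes tested one of 3159 nt. With the genes split by length into 4 classes of equal size, 183 genes of the longest class were higher and 4 lower, and 2 of the shortest class were higher and 189 lower. Spearman's rho between fold change and length was 0.517 across 12879 genes, which share 6 libraries and are not independent replicates. The tilt by library was relative to the other libraries, as each gene was centred on its mean over the 6. On that scale (median centred log2 CPM) the longest class minus the shortest was 0.342, 0.188 and 0.169 in the 3 LV libraries. In the 3 OR libraries it was -0.174, -0.147 and -0.388. Base composition moved with the tilt, with a median GC content of 44.7% in genes higher and 53.6% in genes lower in LV. When a smooth curve of level against length was subtracted within each library, rho became -0.004 and 5 genes passed: Wdfy1, Npr3, C4b, Igf2 and Cry1. This length correction was an alternative added after the data had been seen, and corrected values are given beside the main ones for most genes and groups below; no called gene other than these 5 passed with it.

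**Figure D1:**
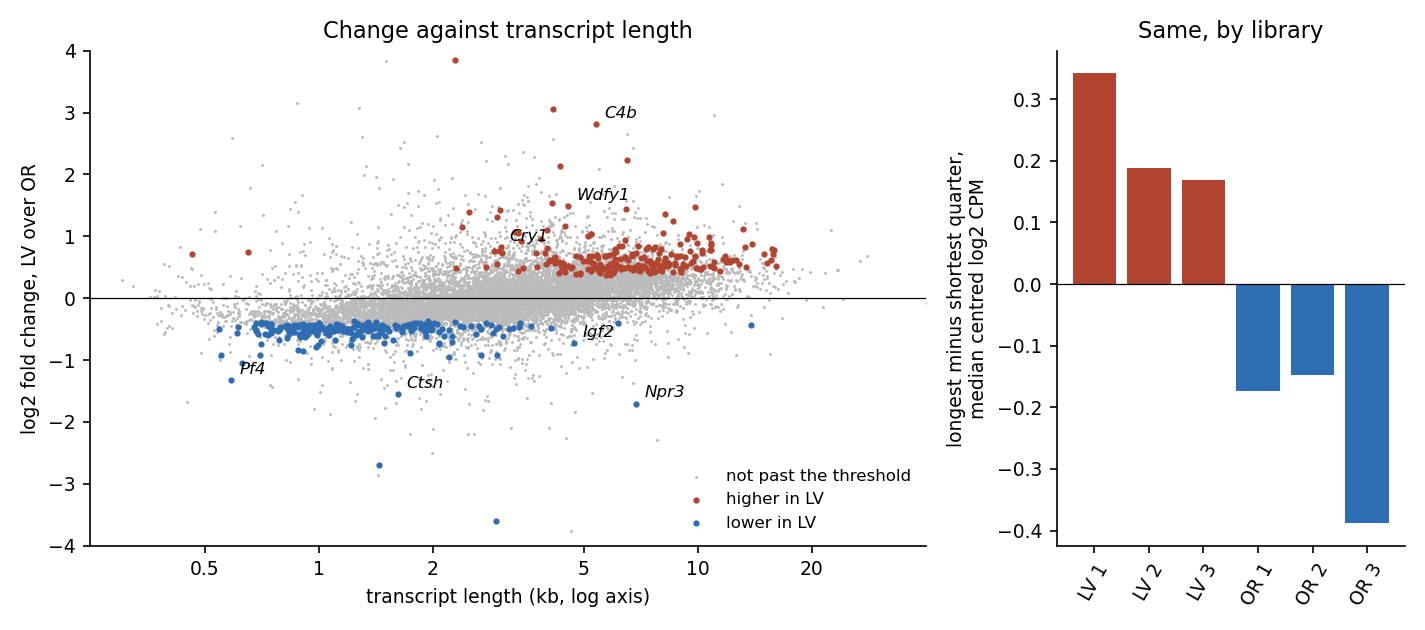
Left, the log2 fold change of LV over OR for each gene tested against its transcript length in kb on a log axis, with called genes coloured and the labelled genes discussed in the text; the few genes outside the axes, among them Ttn with its very long transcript, did not pass the threshold. Right, the median centred log2 CPM of the longest of 4 equal length classes minus that of the shortest in each library, from 0.342 in LV 1 to -0.388 in OR 3, positive in all 3 LV and negative in all 3 OR libraries.

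Wdfy1 had the smallest p of all genes. It encodes an endosomal protein with WD40 and FYVE domains that has been described as an adaptor in signalling by Toll-like receptors 3 and 4. Its level was 25.7, 22.97 and 23.7 CPM in LV and 10.1, 7.61 and 8.16 CPM in OR, so that every LV library exceeded every OR library by a wide margin. The log2 fold change was 1.49 (SE 0.159, adjusted p = 0.00625 by edgeR), a fold of 2.80, and 1.36 after length correction (adjusted p = 0.0111). Wdfy1 lies on chr1:79702262-79776143 (GRCm38.p6), and its call held in 16 of 19 alternative analyses, more than that of any other gene named here.

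C4b, which encodes complement component 4 of the classical and lectin pathways, had the largest increase in LV among the named genes. It was at 5.45, 4.39 and 7.34 CPM in LV and at 0.754, 1.09 and 0.599 CPM in OR. The log2 fold change was 2.81 (SE 0.357, adjusted p = 0.0204 by edgeR) and 2.63 after length correction (adjusted p = 0.0255). Its near-identical neighbour C4a on chromosome 17, with which reads can be shared, had at most 5 counts in any library. The summed level of 22 fibroblast markers was 2001, 1430 and 3043 CPM in LV and 2401, 1242 and 889 CPM in OR. The sum in OR library 1 was higher than in LV libraries 1 and 2, and the sums overlapped between the groups. The part of fibroblasts in the C4b difference was not tested. Of the other complement genes none passed: C7, a component of the membrane attack complex, was at 12.2, 6.13 and 18.7 CPM in LV and 4.29, 1.40 and 0.861 CPM in OR (adjusted p = 0.104), Cfb had a log2 fold change of 0.81 (adjusted p = 0.0523) and C3 one of 1.33 (adjusted p = 0.358). The list of complement components and regulators had 1 of 24 tested genes higher and 0 lower (1.80% of all genes were higher). Its median log2 fold change was 0.40, or 0.42 after length correction, against 0.01 for all genes.

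Npr3 had the largest decrease in LV of the genes past the threshold with a mean of at least 5 CPM in OR. Its protein removes natriuretic peptides from the circulation. The level was 3.50, 2.37 and 3.79 CPM in LV and 10.6, 9.97 and 10.97 CPM in OR, and the spread within each group was small beside the gap. The log2 fold change was -1.71 (SE 0.232, adjusted p = 0.0204 by edgeR). Npr3 has a long transcript, 6892 nt, and so went against the length trend, and its log2 fold change was -1.97 after length correction (adjusted p = 0.0111). The receptors that carry the natriuretic signal overlapped between the groups: Npr1 was at 217 to 242 CPM in LV and 187 to 263 CPM in OR (adjusted p = 0.699), and Npr2 had an adjusted p of 0.941.

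As Npr3 marks endocardium, the other endocardial markers were read beside it. Fabp5, which is also a capillary gene, was the only other of 16 tested endocardial markers to pass, and lower in LV. The median of the list was -0.12, or -0.09 after length correction. Cytl1, a small secreted protein of endocardium, had 225, 86 and 340 counts in LV and 627, 857 and 617 in OR, a log2 fold change of -1.80 that did not pass (adjusted p = 0.0896). Plvap, Vwf and Nfatc1 had log2 fold changes of -0.23, -0.21 and 0.29, none past the threshold, and Hapln1 was at or near 0 in all 6 libraries. The summed level of the 18 listed markers was 868 to 923 CPM in LV and 1064 to 1072 CPM in OR. Fabp5 is among these markers and makes up a large part of the sum. Its levels, given with the capillary genes below, lay lower in every LV library than in any OR library. A sum without Fabp5 was not taken, so the gap cannot be read as that of endocardial markers in general. In bulk RNA fewer cells of a type and less RNA per cell cannot be told apart, and the part of endocardial cells in the Npr3 difference was not tested.

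Igf2, an imprinted growth factor, was likewise lower in LV despite a long transcript of 4722 nt. It was at 62.0, 49.6 and 54.3 CPM in LV and 77.2, 103 and 93.9 CPM in OR, and the groups did not overlap. The log2 fold change was -0.72 (SE 0.127, adjusted p = 0.0281 by edgeR) and -0.87 after length correction (adjusted p = 0.0295). Ctsh, the lysosomal cysteine protease cathepsin H, was at 5.78, 4.51 and 8.68 CPM in LV and at 19.7, 19.1 and 17.0 CPM in OR. Its fold was 2.93 and its log2 fold change -1.55 (SE 0.222, adjusted p = 0.0204 by edgeR), and after length correction it stood at -1.36 with an adjusted p of 0.0525. Among 34 tested lysosomal proteases and hydrolases only Ctsh and Ctsl, cathepsin L, passed, both lower in LV (1.73% of all genes were lower), and the list's median was -0.16 before and -0.08 after length correction. Ctsl fell from a mean of 326 CPM in OR to 248 CPM in LV and has a 6168 nt transcript (log2 fold change -0.40, and -0.63 with an adjusted p of 0.0595 after length correction), and Ctsb and Ctsd, the abundant cathepsins B and D, had log2 fold changes of -0.23 and -0.05 that did not pass.

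**Figure D2:**
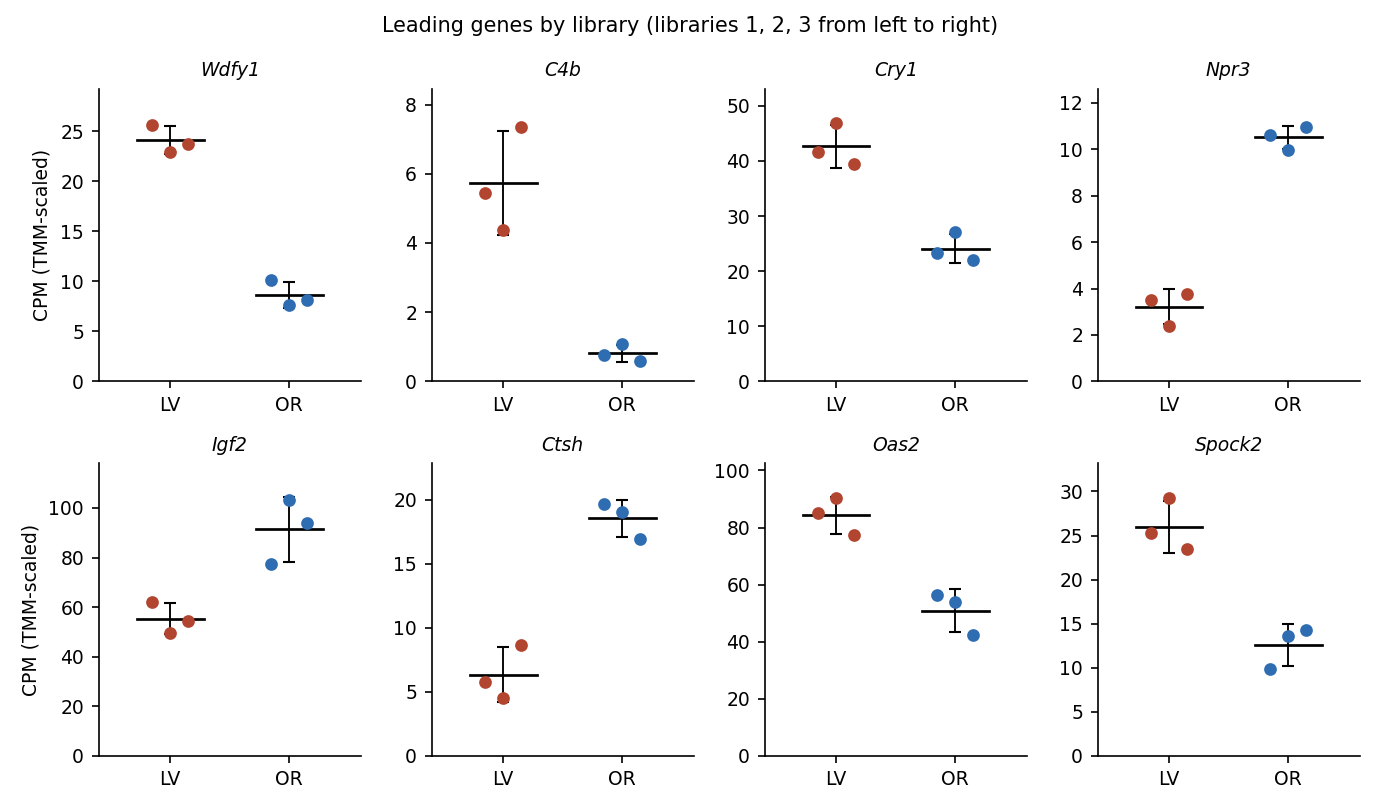
TMM-scaled CPM of 8 genes in the 3 LV (red) and 3 OR (blue) libraries; points are libraries, the horizontal line is the mean and the bar the SD of 3 libraries. Wdfy1, C4b, Cry1, Oas2 and Spock2 are higher and Npr3, Igf2 and Ctsh lower in LV, with no overlap between the groups, as in Npr3 with 2.37 to 3.79 CPM in LV against 9.97 to 10.97 CPM in OR.

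The 2 remaining heart regions give a frame for these genes, as levels with no test. Cry1 lay between 34.6 and 41.3 CPM in the 6 Apex and VS libraries, above all 3 OR libraries. Npr3 was at 8.13, 11.1 and 9.62 CPM in Apex and at 7.43, 0.904 and 4.69 CPM in VS, so that the Apex libraries were near OR and the VS libraries scattered. C4b was at 0.779, 0.914 and 2.27 CPM in Apex and 5.12, 2.88 and 3.25 CPM in VS. Wdfy1 ranged from 14.6 to 32.5 CPM in Apex and from 16.5 to 34.1 CPM in VS, all above OR, and Slit3 from 3.00 to 4.73 CPM across both regions, at the OR level.

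Cry1, the transcriptional repressor at the core of the circadian clock, was higher in LV, at 41.6, 46.9 and 39.4 CPM against 23.2, 27.1 and 22.01 CPM in OR. The groups did not overlap, and the log2 fold change was 0.82 (SE 0.126, adjusted p = 0.0243 by edgeR) and 0.84 after length correction (adjusted p = 0.0317). Clock, a subunit of the activator that Cry1 opposes, was higher as well, at 34.6, 27.8 and 34.5 CPM against 20.2, 21.9 and 21.9 CPM (log2 fold change 0.60, adjusted p = 0.0405), but has a 9744 nt transcript and was at 0.28 after length correction (adjusted p = 0.386). These were 2 of 23 tested clock genes, and none was lower (1.80% of all genes were higher). Clock outputs that swing through the day differed most in OR library 1. Nr1d1, the repressor REV-ERB alpha, was at 16.2, 5.85 and 10.1 CPM in LV and at 85.2, 7.37 and 20.8 CPM in OR, and Dbp, an output transcription factor, at 1.104, 2.29 and 2.07 against 11.8, 1.71 and 3.22 CPM. That library was the highest of the 6 in both, and neither gene passed (adjusted p = 0.405 and 0.225).

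The Cry1 promoter is printed for its E-box, the motif through which clock factors are known to act. The window below is chr10:85185055-85185154 (minus strand), from RefSeq on GRCm38.p6, read 5′ to 3′ up to the base before the transcription start, with the E-box CACGTG in capitals, 60 bases upstream of the start. Promoters were read from 250 bases before to 50 bases after the start, on both strands; 7.15% of all promoters held an E-box, as did the promoters of 11.5% of genes tested, 15.6% of genes higher and 14.1% of genes lower in LV. A match describes letters and does not show binding.
Cry1: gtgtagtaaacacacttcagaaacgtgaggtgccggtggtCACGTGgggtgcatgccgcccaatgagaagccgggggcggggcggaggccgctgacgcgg

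Of 41 tested genes of the interferon response, 5 were higher in LV and 0 lower, beside 1.80% higher and 1.73% lower among all genes. The median log2 fold change of the list was -0.02, or -0.01 after length correction. The 5 were Oas2, an activator of RNase L, Herc6, an ISG15 ligase in mouse, Samd9l, an antiviral translation inhibitor, Gbp7, a guanylate-binding GTPase, and Parp14, an ADP-ribosyltransferase. Oas2 was at 85.2, 90.3 and 77.3 CPM in LV and 56.3, 54.0 and 42.3 CPM in OR (log2 fold change 0.73, SE 0.124, adjusted p = 0.0253 by edgeR). Herc6 was at 38.3, 35.8 and 39.0 CPM in LV and 24.5, 23.01 and 23.3 CPM in OR (log2 fold change 0.68, adjusted p = 0.0251). Neither gene's groups overlapped. Several classical members had negative log2 fold changes and did not pass: Isg15 had a log2 fold change of -0.57 (adjusted p = 0.0997), Bst2 of -0.40 (adjusted p = 0.0699), Ifit1 of -0.43 (adjusted p = 0.281) and Psmb8 of -0.35 (adjusted p = 0.0701). After length correction none of the 5 passed, with adjusted p-values of 0.0595 for Oas2, 0.0963 for Herc6 and 0.200 for Samd9l, and log2 fold changes of 0.66, 0.53 and 0.37. Gbp7 and Parp14 went from 0.47 and 0.45 to 0.27 and 0.18.

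Whole interferon-inducible families were looked at after the calls were known, so their counts follow in part from that choice. Gbp7, already counted above, is counted again in its family. Of 8 tested guanylate-binding proteins 4 were higher in LV, Gbp4, Gbp5, Gbp7 and Gbp9, with transcripts of 3055 to 5614 nt (1.80% of all genes were higher). Of the other 4, of 2516 to 3528 nt, none passed. Gbp2, Gbp3, Gbp6 and Gbp10 had log2 fold changes of -0.200, -0.003, 0.331 and -0.515. Gbp5 was at 39.7, 35.4 and 29.1 CPM in LV and 19.2, 21.2 and 22.4 CPM in OR, a log2 fold change of 0.73 (adjusted p = 0.0312) and of 0.75 after length correction (adjusted p = 0.0595). Of 8 tested genes of the PYHIN family, sensors of nucleic acid, all had a positive log2 fold change, as did 50.9% of all genes tested. Ifi203 and Ifi207 passed. Ifi203 was at 126, 121 and 133 CPM in LV and 81.6, 63.8 and 83.4 CPM in OR (log2 fold change 0.73, adjusted p = 0.0243), and was at 0.67 after length correction (adjusted p = 0.0595). Of 5 Schlafen genes, which restrict translation, Slfn5 passed, at 513, 574 and 525 CPM against 414, 416 and 376 CPM (adjusted p = 0.0486), a log2 fold change of 0.42 that was 0.20 after length correction (adjusted p = 0.429). Gvin1 and Gm4070, near-identical genes of very large interferon-inducible GTPases with transcripts of 9005 and 9007 nt, were higher by log2 fold changes of 0.69 and 0.87, which were 0.38 and 0.57 after length correction (adjusted p = 0.170 and 0.0595). Members of these families share sequence, so that reads may be divided wrongly between them.

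The interferon-stimulated response element (GAAANNGAAA, either strand) was present in the promoters of 3.99% of all genes with a promoter entry. The share was 3.79% of genes tested, 8.33% of genes higher in LV (15 of 180 with a promoter) and 4.35% of genes lower in LV (8 of 184). In the interferon list it was present in the promoters of 16 of 32 tested genes, and in 1 of the 3 called genes that have a promoter entry. The windows of 5 called genes are shown with the element in capitals as it reads on the gene's strand, RefSeq on GRCm38.p6, each 5′ to 3′: Gbp5 at chr3:142496729-142496828 (plus strand), Gbp7 at chr3:142530236-142530335 (plus strand), Ifi203 at chr1:173942493-173942592 (minus strand), Ifi207 at chr1:173741810-173741909 (minus strand) and Slfn5 at chr11:82951907-82952006 (plus strand). It began 165, 53, 35, 41 and 155 bases upstream of the start, in that order. In both guanylate-binding genes it lay on the opposite strand, and in Ifi203 and Ifi207 it had the same letters.
Gbp5: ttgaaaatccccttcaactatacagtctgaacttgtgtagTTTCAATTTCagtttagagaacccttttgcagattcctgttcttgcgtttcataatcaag
Gbp7: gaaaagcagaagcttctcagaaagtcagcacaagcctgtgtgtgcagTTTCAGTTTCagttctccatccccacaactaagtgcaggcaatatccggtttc
Ifi203: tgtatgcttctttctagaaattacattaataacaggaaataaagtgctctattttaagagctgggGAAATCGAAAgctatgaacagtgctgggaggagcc
Ifi207: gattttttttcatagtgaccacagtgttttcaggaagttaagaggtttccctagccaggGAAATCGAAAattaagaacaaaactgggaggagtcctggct
Slfn5: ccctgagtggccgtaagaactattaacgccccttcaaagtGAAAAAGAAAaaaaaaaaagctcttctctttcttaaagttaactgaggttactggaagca

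Of 25 tested genes of Toll-like receptor signalling 2 were called, both higher in LV (1.80% of all genes were higher): Wdfy1, above, and Tlr4, the endotoxin receptor. Tlr4 was at 20.4, 23.9 and 20.7 CPM in LV and 12.7, 15.6 and 14.0 CPM in OR (log2 fold change 0.62, SE 0.147, adjusted p = 0.0450 by edgeR; 0.54 and 0.162 after length correction). Tlr3, the receptor of double-stranded RNA, had a log2 fold change of 0.29 (adjusted p = 0.185), and the adaptor Myd88 one of -0.66 (adjusted p = 0.216). Among 24 tested chemokines and receptors, Ackr2, a scavenger of inflammatory CC chemokines, was higher in LV, and Cxcl9 and Pf4 were lower (1.73% of all genes were lower). Cxcl9, an interferon-gamma-induced ligand for T cells, was at 40.6, 56.4 and 53.5 CPM in LV and 68.1, 76.1 and 78.6 CPM in OR (log2 fold change -0.57, adjusted p = 0.0425; -0.54 and 0.131 after length correction).

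Guidance genes were among those higher in LV: of 36 tested ligands and receptors 4 passed, all higher (1.80% of all genes were higher). The list's median log2 fold change was 0.29, against 0.01 for all genes and 0.25 for the longest of the 4 length classes. Its median transcript length was 5871.5 nt. Slit3, a secreted ligand, was at 10.5, 7.95 and 10.3 CPM in LV and at 4.29, 5.43 and 4.30 CPM in OR (log2 fold change 1.04, SE 0.217, adjusted p = 0.0375 by edgeR). Robo2, a receptor for Slits, was at 8.47, 7.75 and 9.22 CPM in LV and at 5.04, 2.72 and 3.03 CPM in OR (log2 fold change 1.24, SE 0.265, adjusted p = 0.0389). For both the lowest LV library lay above the highest OR library. Robo4, the endothelial member of the receptor family, was abundant and overlapped between groups (491 to 631 against 445 to 553 CPM, adjusted p = 0.578), and Slit2 and Robo1 did not pass.

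Sema6d, a transmembrane semaphorin, was at 94.1, 82.0 and 104 CPM in LV and at 40.5, 51.9 and 53.9 CPM in OR, again without overlap (log2 fold change 0.93, SE 0.130, adjusted p = 0.0204 by edgeR). Plxna2, a plexin that receives semaphorin signals, was at 179, 156 and 133 CPM against 124, 98.2 and 89.2 CPM, and here the lowest LV library was close to the highest OR library (log2 fold change 0.59, adjusted p = 0.0470). All 4 have long transcripts, 5228 nt for Slit3, 8591 nt for Robo2, 6444 nt for Sema6d and 11040 nt for Plxna2. After length correction the log2 fold changes were 0.86, 0.96, 0.68 and 0.26 and none passed, with adjusted p-values of 0.138, 0.163, 0.106 and 0.365, and the list's median was 0.11.

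In the vascular growth factor system only the ligand Pgf passed, of 10 genes tested (3.53% of all genes were called). Pgf, placental growth factor, which binds Flt1, was lower in LV, at 25.4, 22.9 and 20.5 CPM against 44.8, 40.4 and 29.4 CPM in OR (log2 fold change -0.74, SE 0.159, adjusted p = 0.0399 by edgeR; -0.62 and 0.163 after length correction). The receptors leaned higher in LV without passing. Kdr, the main signalling receptor for VEGF-A, was at 2394, 2443 and 2238 CPM in LV and 1525, 1983 and 1656 CPM in OR (adjusted p = 0.0692), and Flt1 had a log2 fold change of 0.40 (adjusted p = 0.0847). Nrp1, the co-receptor shared with semaphorins, was at 1640, 1634 and 1649 CPM against 1249, 1253 and 1250 CPM, a narrow spread in each group (log2 fold change 0.39, adjusted p = 0.0619). After length correction the log2 fold changes of Kdr, Flt1 and Nrp1 were 0.23, 0.15 and 0.35. On the authors' per-length scale, TPM, the order of the receptors was the same in both regions: Kdr at 774, 699 and 681 TPM in LV and 408, 518 and 424 TPM in OR was above Nrp1 at 529, 468 and 502 against 334, 327 and 321 TPM, and Nrp1 above Flt1 at 455, 413 and 380 against 318, 301 and 237 TPM. The ligands Vegfa, Vegfb and Vegfc had adjusted p-values of 0.533, 0.468 and 0.735.

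Adm, adrenomedullin, a vasodilator peptide induced by low oxygen, was lower in LV, at 47.6, 68.8 and 65.1 CPM against 84.4, 97.3 and 96.7 CPM in OR (log2 fold change -0.62, adjusted p = 0.0405 by edgeR). It was the 1 gene of 23 tested hypoxia-response genes to pass (3.53% of all genes were called). Hilpda, a hypoxia-inducible lipid droplet protein, was at 11.2, 13.7 and 15.5 CPM against 20.8, 24.9 and 23.8 CPM (adjusted p = 0.0345). Both are short, 1390 and 982 nt, and stood at -0.38 and -0.49 after length correction, no longer past the threshold. Bmpr2, the type II receptor for BMP ligands, was the 1 gene of 28 in BMP and TGF-beta signalling to pass, higher in LV at 104, 85.9 and 101 CPM against 61.9, 65.9 and 69.9 CPM (log2 fold change 0.56, adjusted p = 0.0312; 0.20 after length correction, transcript 12899 nt). None of 20 Notch, 24 Wnt or 9 apelin and Tie genes passed.

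**Figure D3:**
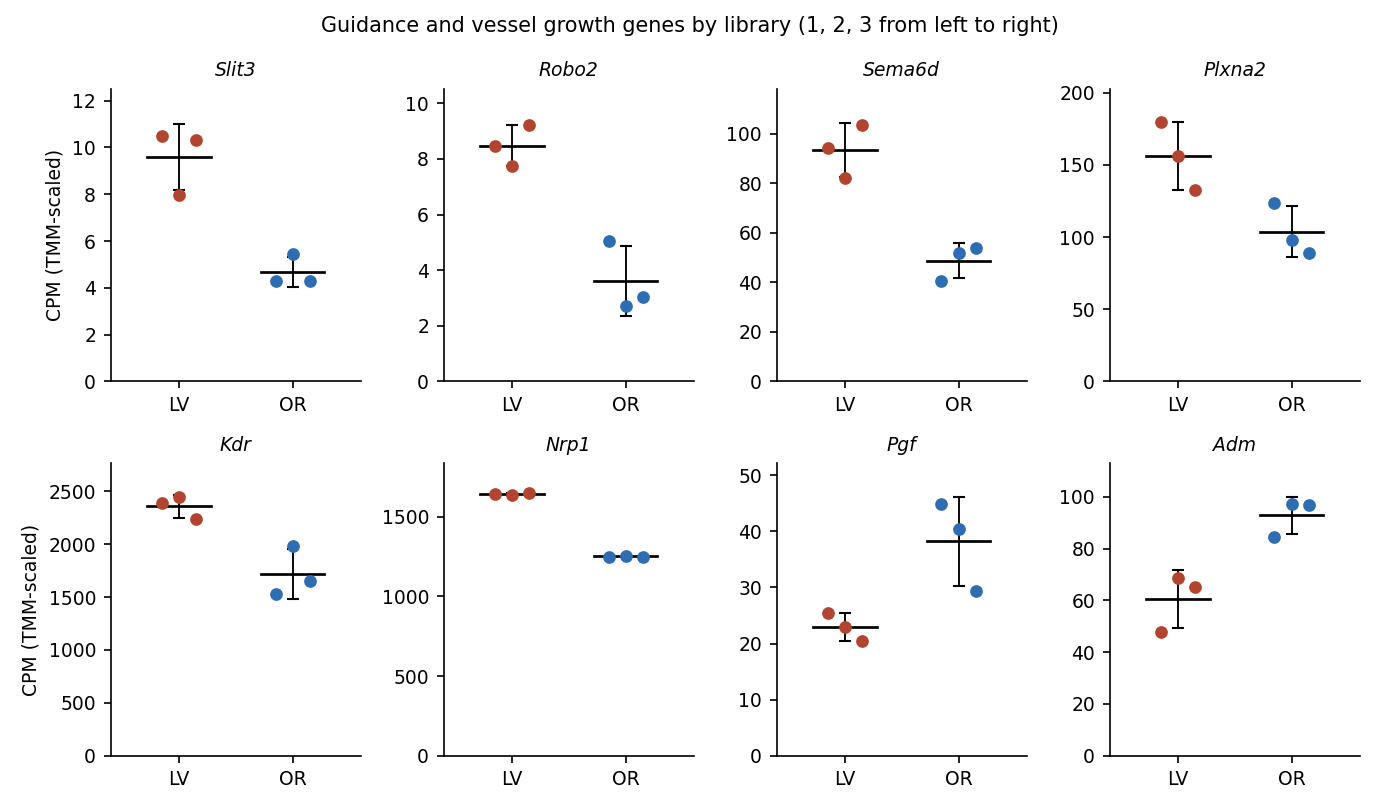
TMM-scaled CPM of guidance genes (Slit3, Robo2, Sema6d, Plxna2), vascular growth factor genes (Kdr, Nrp1, Pgf) and Adm in the 3 LV (red) and 3 OR (blue) libraries, with mean and SD. The 4 guidance genes are higher and Pgf and Adm lower in LV past the threshold; Kdr and Nrp1 do not overlap between groups but did not pass (adjusted p = 0.0692 and 0.0619).

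Among 40 tested cardiac and endothelial transcription factors, Trps1, Tbx3, Mef2a and Mef2c were higher in LV and none was lower (1.80% of all genes were higher). The list's median log2 fold change was 0.07, with 25 positive and 15 negative values. Trps1, a GATA-type repressor, was at 17.1, 10.2 and 14.1 CPM in LV and 4.76, 5.01 and 5.17 CPM in OR (log2 fold change 1.47, SE 0.217, adjusted p = 0.0216 by edgeR; 1.14 and 0.0595 after length correction). Tbx3, a T-box repressor known from the conduction system, was at 125, 138 and 129 CPM against 80.2, 92.4 and 86.6 CPM (log2 fold change 0.59, adjusted p = 0.0251; 0.44 and 0.117 after length correction). The groups did not overlap in either gene. Mef2a and Mef2c, MADS-box activators, had log2 fold changes of 0.41 and 0.46, both 0.22 after length correction. Sox9, which lay outside the naming rule at a mean of 4.67 CPM and was picked after its value was seen, was at 5.34, 3.05 and 5.62 CPM in LV and 1.32, 1.44 and 2.02 CPM in OR (adjusted p = 0.0413, and 0.132 after length correction).

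Of the junction and flow genes 4 were called. Tjp1, the tight junction scaffold ZO-1, and Pcdh12, an endothelial protocadherin, were the 2 of 25 junction genes to pass, both higher in LV (1.80% of all genes were higher), with log2 fold changes of 0.43 and 0.47 that were 0.17 and 0.27 after length correction. Of 25 shear stress genes 2 were called (3.53% of all genes were called): Pkd2, a mechanosensitive channel subunit of cilia, was higher (log2 fold change 0.44, adjusted p = 0.0493; 0.27 and 0.326 after length correction) and Hmox1, the haem-degrading enzyme, lower, at 29.9, 37.6 and 31.3 CPM against 48.2, 57.4 and 52.4 CPM (log2 fold change -0.68, adjusted p = 0.0302; -0.47 and 0.143 after length correction). Klf2 and Klf4, the flow-induced factors of that list, did not pass. Cdkn1c, the cell cycle inhibitor p57, fell from a mean of 523 CPM in OR to 369 CPM in LV, and Gadd45a, a stress-induced growth arrest gene, from 35.8 to 22.6 CPM. They were the 2 of 23 cell cycle inhibitors to pass (1.73% of all genes were lower). After length correction neither passed, with Cdkn1c going from -0.51 to -0.36 (adjusted p = 0.181) and Gadd45a from -0.67 to -0.40 (adjusted p = 0.262). None of 24 mitosis genes and none of 26 replication genes passed.

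Capillary markers leaned lower in LV. Of 17 tested capillary markers, Fabp5, a fatty acid binding protein, and Car4, a carbonic anhydrase on the capillary surface, were lower and none was higher. Among all genes 1.73% were lower. The list's median was -0.20, or -0.15 after length correction. Fabp5 was at 293, 350 and 292 CPM in LV and 440, 435 and 500 CPM in OR (log2 fold change -0.56, adjusted p = 0.0345), and Car4 at 385, 436 and 390 CPM against 651, 634 and 551 CPM (log2 fold change -0.60, adjusted p = 0.0305). Neither passed after length correction (-0.25 and -0.34). Cd36, the fatty acid translocase and among the most abundant transcripts at 4233 to 5780 CPM, overlapped between the groups (adjusted p = 0.506 by edgeR). Fabp4 and Gpihbp1 had log2 fold changes of -0.45 and -0.44 that did not pass (adjusted p = 0.114 and 0.0665). Over 19 alternative analyses these ran from -0.56 to -0.06 for Fabp4 and from -0.55 to -0.20 for Gpihbp1. Of 17 arterial, 12 venous and 16 general endothelial markers none passed, and the last list had a median of 0.003.

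Globin transcripts were lower in LV. The 4 adult globin genes Hba-a1, Hba-a2, Hbb-bs and Hbb-bt passed, of 10 tested red cell markers (1.73% of all genes were lower). Hba-a2 was at 1205, 1148 and 877 CPM in LV and 2059, 2133 and 1909 CPM in OR (log2 fold change -0.92, SE 0.139, adjusted p = 0.0243 by edgeR), and Hbb-bs at 535, 311 and 390 CPM against 798, 892 and 880 CPM (log2 fold change -1.06, SE 0.171, adjusted p = 0.0253). The globin copies of a cluster are near-identical and may share reads. The summed level of the listed red cell markers was 1934 to 2745 CPM in LV and 4188 to 4638 CPM in OR, without overlap; the list's median was -0.69, and -0.58 after length correction, when none of the 4 passed. Alas2, the erythroid enzyme of haem synthesis, had a log2 fold change of -0.64 (adjusted p = 0.0782).

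Platelet markers gave calls in the same direction. Pf4, platelet factor 4, was at 3.20, 3.92 and 2.56 CPM in LV and 11.1, 5.51 and 7.82 CPM in OR (log2 fold change -1.33, adjusted p = 0.0405; -1.05 and 0.172 after length correction). Of 13 tested platelet markers 2 were lower and 0 higher (1.73% of all genes were lower), and 12 had a negative log2 fold change. The summed level was 89.5 to 104 CPM in LV and 109 to 138 CPM in OR. The list's median was -0.65, and -0.42 after length correction. The part of blood left in the preparations in other differences was not tested.

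Some heart muscle transcripts were lower in LV. Of 21 tested ventricular cardiomyocyte markers 5 were lower, with transcripts of 721 to 1104 nt: the troponins Tnni3 and Tnnc1, the myosin light chains Myl2 and Myl3, and Mb, myoglobin. Among all genes 1.73% were lower, and the list's median was -0.29, or -0.23 after length correction. Tnni3 was at 121, 131 and 150 CPM in LV and 273, 205 and 248 CPM in OR (log2 fold change -0.85, SE 0.125, adjusted p = 0.0216 by edgeR), and Mb at 84.1, 83.6 and 94.8 CPM against 160, 117 and 141 CPM (log2 fold change -0.67, adjusted p = 0.0302). After length correction Tnni3 and Mb stood at -0.55 and -0.38, and none of the 5 passed. Myh6, Ttn and Ryr2, encoding the large proteins alpha-myosin heavy chain, titin and the ryanodine receptor, had log2 fold changes of -0.10, -0.11 and 0.24, all overlapping between groups, as did Actc1, cardiac actin, with a 1473 nt transcript (-0.15). The summed level of the list overlapped as well, 1980 to 2504 CPM in LV against 2483 to 3081 CPM in OR.

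Atrial markers gave no call. Their summed level overlapped between the groups, at 668, 661 and 472 CPM in LV and 864, 571 and 453 CPM in OR, and OR library 1 was the highest. Myl7, the atrial myosin light chain, was at 13.03, 6.29 and 7.69 CPM in LV and 2.497, 0.272 and 1.76 CPM in OR, without overlap but not past the threshold (log2 fold change 2.59, SE 0.640, adjusted p = 0.0693 by edgeR). The natriuretic peptide gene Nppa was at 16.3, 9.85 and 14.7 CPM against 8.62, 1.51 and 4.01 CPM (adjusted p = 0.189), and Myl4 and Sln had adjusted p-values of 0.0735 and 0.168. None of the 10 tested atrial markers passed, with a list median of 0.72 before and 0.90 after length correction. Without LV library 1 the medians were 0.46 and 0.57. LV library 1 was the highest of the 6 in Myl7, Nppa, Myl4 and Sln.

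**Figure D4:**
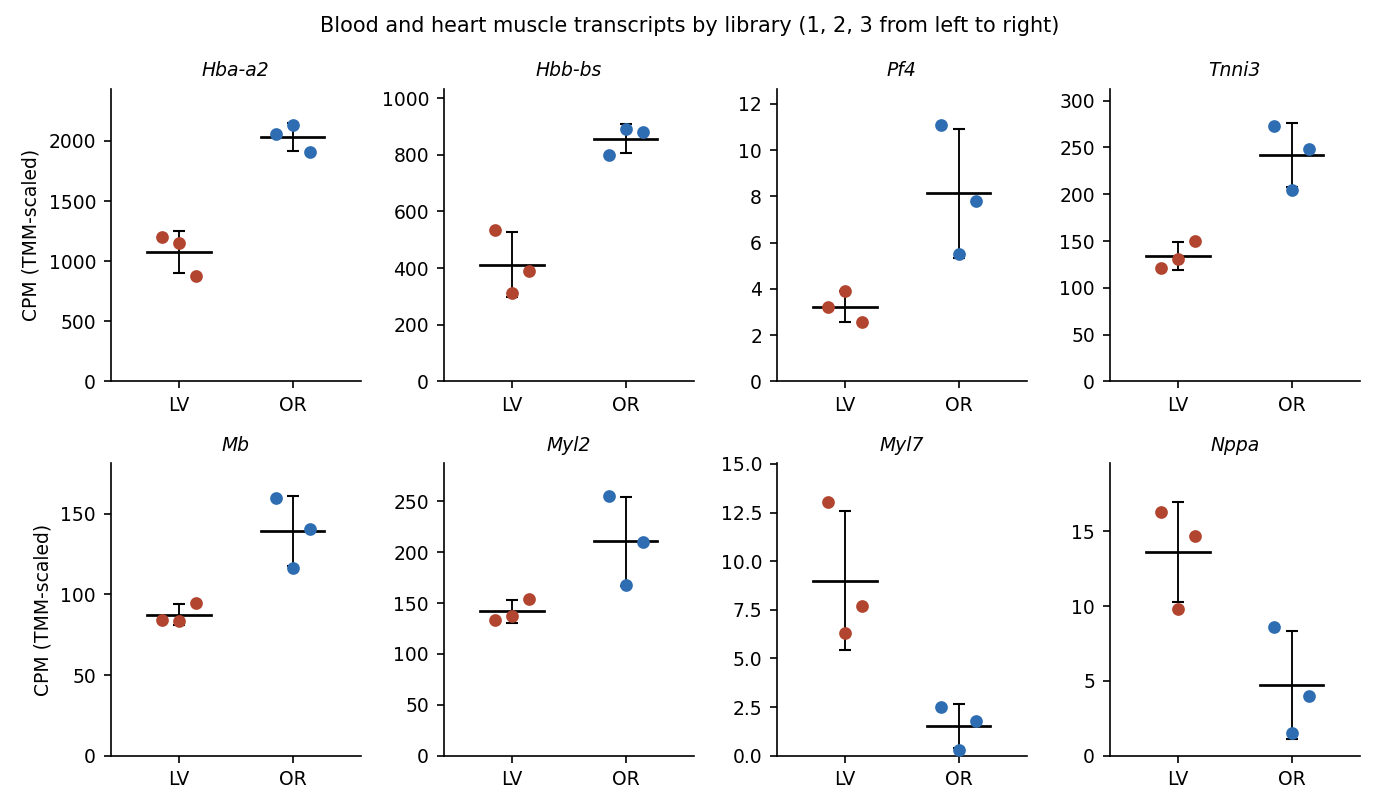
TMM-scaled CPM of globins (Hba-a2, Hbb-bs), a platelet gene (Pf4), ventricular muscle genes (Tnni3, Mb, Myl2) and atrial muscle genes (Myl7, Nppa) in the 3 LV (red) and 3 OR (blue) libraries, with mean and SD. Blood and ventricular genes lie lower in LV, for example Hba-a2 at 877 to 1205 against 1909 to 2133 CPM, while Myl7 and Nppa lie higher in LV without passing.

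Stromal and lymphatic transcripts leaned higher in LV, with 1 call in each list. Col14a1, a fibril-associated collagen, was at 9.76, 5.02 and 9.60 CPM in LV and 4.19, 2.87 and 1.95 CPM in OR (log2 fold change 1.44, SE 0.333, adjusted p = 0.0448 by edgeR; 1.21 and 0.162 after length correction). It was the 1 called of 22 tested fibroblast markers (1.80% of all genes were higher), of which 20 had a positive log2 fold change. The list's median was 0.67 and, after length correction, 0.73. The median was 0.38 without LV library 3, 0.39 without OR library 3 and 1.13 without OR library 1. The summed fibroblast level overlapped between the groups, as given beside C4b, and Col1a1 and Dcn varied widely inside each group (25.9 to 159 CPM and 88.6 to 370 CPM over the 6 libraries). Spock2, the matrix proteoglycan testican-2, was the other called gene of 49 tested collagens and matrix genes, at 25.3, 29.2 and 23.5 CPM in LV and 9.85, 13.5 and 14.3 CPM in OR (log2 fold change 1.05, SE 0.167, adjusted p = 0.0243 by edgeR; 0.87 and 0.0860 after length correction). The part of fibroblasts in these differences was not tested.

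Mmrn1, multimerin 1, a factor V-binding protein enriched in lymphatic endothelium and platelets, was the 1 called of 13 lymphatic markers (1.80% of all genes were higher). It was at 20.3, 15.03 and 18.6 CPM in LV and 6.55, 9.31 and 8.23 CPM in OR (log2 fold change 1.16, SE 0.186, adjusted p = 0.0243 by edgeR; 1.04 and 0.0595 after length correction), opposite in direction to the platelet genes above. Prox1, the master regulator of lymphatic identity, was at 1.70 to 6.11 CPM over the 6 libraries (adjusted p = 0.229), and Lyve1 had an adjusted p of 0.775. The list's summed level overlapped, 786 to 837 CPM in LV and 699 to 824 CPM in OR, and its median was 0.71, or 0.43 after length correction. Without LV library 1 the medians were 0.37 and 0.29. None of 18 pericyte and smooth muscle, 16 macrophage, 11 Schwann cell and neuron, 7 mesothelial, 5 neutrophil or 4 lymphocyte markers tested passed. The neutrophil genes Mpo and Elane, the mast cell gene Cpa3 and the adipocyte gene Adipoq had 0 counts in all 6 libraries.

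Housekeeping groups with short transcripts were among the genes lower in LV. Of 50 tested cytosolic ribosomal proteins 18 were lower and 0 higher, of 56 nuclear-encoded subunits of the respiratory chain and ATP synthase 12 were lower and 0 higher, and of 29 proteasome subunits 3 were lower and 0 higher. Among all genes 1.73% were lower. Of the 3222 genes in the shortest length class, 189 were lower and 2 higher. The median transcript lengths of the 3 lists were 941.5, 823.5 and 1541 nt. Their median log2 fold changes were -0.40, -0.32 and -0.31, and after length correction -0.16, -0.09 and -0.10, with 0 calls in each. The large subunit protein Rpl15 was at 579, 579 and 658 CPM in LV and 926, 858 and 983 CPM in OR (log2 fold change -0.61, SE 0.113, adjusted p = 0.0305 by edgeR), and Rps14, of the small subunit, had a log2 fold change of -0.67 (adjusted p = 0.0305); after length correction they stood at -0.46 and -0.38. Ndufb8, of complex I, was at 106, 98.9 and 114 CPM against 166, 151 and 168 CPM (log2 fold change -0.61, adjusted p = 0.0251; -0.49 and 0.0734 after length correction). Many ribosomal protein genes have processed pseudogenes that can share their reads.

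Other metabolic genes passed singly, beside 3.53% called among all genes. Etfb, the beta subunit of the electron transfer flavoprotein that passes on electrons from fatty acid oxidation, was at 89.8, 82.5 and 98.2 CPM in LV and 137, 141 and 142 CPM in OR (log2 fold change -0.63, SE 0.099, adjusted p = 0.0243 by edgeR; -0.34 after length correction). Ldhb, a lactate dehydrogenase subunit, was the 1 called of 19 glycolysis genes, with a log2 fold change of -0.63, and Coq7, of ubiquinone synthesis, had one of -0.75; they were -0.37 and -0.48 after length correction (adjusted p = 0.138 and 0.291). In the opposite direction Hmgcs1, which makes HMG-CoA for cholesterol synthesis, was the 1 called of 27 sterol genes, higher in LV with a log2 fold change of 0.49 (0.46 and an adjusted p of 0.134 after length correction). Hspa4l, an HSP110-type chaperone with a 9479 nt transcript, was the 1 called of 29 heat-shock genes, at 25.6, 30.1 and 27.3 CPM against 18.2, 10.7 and 11.9 CPM (log2 fold change 1.03, adjusted p = 0.0302; 0.73 after length correction).

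**Figure D5:**
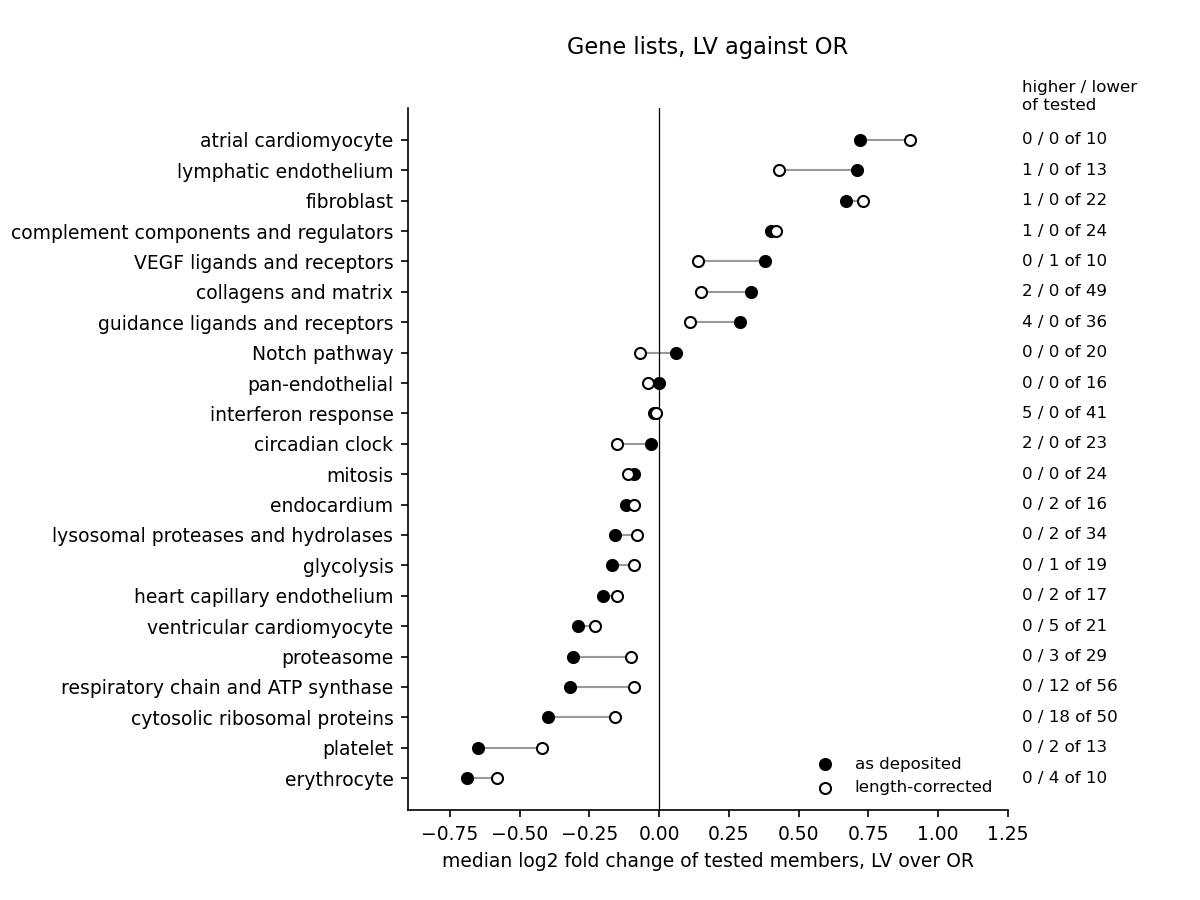
Median log2 fold change of LV over OR for the tested members of 22 gene lists as deposited (filled) and after correction for transcript length (open), with the number of members called higher and lower at the right. Ribosomal, respiratory chain and proteasome lists move from -0.40, -0.32 and -0.31 to -0.16, -0.09 and -0.10, while the red cell, atrial and fibroblast lists move by no more than 0.18.

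The remaining genes with the largest differences belong to no single group. Higher in LV were Ackr2, at 7.77, 6.60 and 5.93 CPM against 1.37, 3.57 and 2.58 CPM (log2 fold change 1.42), Cep290 and Cep192, of cilia and centrosomes (1.36 and 1.06), Medag, an adipogenesis gene (1.31), Kcnip4, a potassium channel regulator (1.15), Lyst, a lysosomal trafficking regulator (1.11), Syn3, a synapsin (1.11), Sertad4 (1.05) and Phip, a chromatin reader (0.79). Syn3 encloses Timp3, an abundant inhibitor of metalloproteinases at a mean of 1392 CPM in LV, so reads near Syn3 may belong to its neighbour; Timp3 itself had a log2 fold change of 0.13. Lower in LV were Gpr160, an orphan receptor (-0.95), Cd247, the zeta chain of the T cell receptor (-0.92), Ier5l (-0.92), Hmgb3, a chromatin protein (-0.89), Rgs10, a regulator of G protein signalling (-0.85), and Cdpf1 (-0.76). After length correction none of these genes passed. The log2 fold changes of Ackr2, Medag, Kcnip4, Sertad4 and Syn3 were then 1.44, 1.33, 1.23, 1.04 and 1.04, and those of Cep290, Cep192, Lyst and Phip were 1.06, 0.78, 0.74 and 0.45. Gpr160, Cd247, Ier5l and Hmgb3 stood at -0.85, -0.90, -0.87 and -0.71, and Rgs10 and Cdpf1 at -0.54 and -0.46. The lengths used for Kcnip4 and Syn3, 2394 and 4006 nt, may be too short, so the corrected values of these genes are uncertain. In LV library 1 they were at 7.29 and 26.4 CPM but at 0.94 and 3.95 on the authors' per-length scale, TPM. Wdfy1, with 4551 nt, was at 25.7 CPM and 10.87 TPM in that library.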

How the data were processed

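RNA of heart endothelial cells was primed with oligo(dT), copied into full-length cDNA, PCR-amplified, fragmented and sequenced with paired 100 bp reads (MGISEQ-2000RS), per the labels' protocols. The genome build was mm10, per the submitters' processing notes; the aligner, the counting program, its strand setting and the annotation are not given in the sources used here. Per the file headers, the deposited heart table gives the authors' read counts and TPM for each of 17513 genes and 12 libraries; the counts are the authors' expected counts, since 81.6% to 82.6% of them per library were exactly whole, and were rounded. The authors' TPM, so named per the file headers, served only to order the VEGF receptors and to check the lengths of Kcnip4 and Syn3. Of the symbols, 24 had been turned into dates and were restored by gene ID.

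Only the 3 LV and 3 OR libraries entered the main fit. Genes were filtered with edgeR's default filter, and 13098 were tested with edgeR 4.0.16 (R 4.3.3; TMM, robust quasi-likelihood F test), with Benjamini-Hochberg adjusted p-values over all of them. Each standard error (SE) was derived from the F statistic. Transcript length is that of the longest protein-coding transcript in GENCODE mouse M21, found for 12879 tested genes; the correction subtracted a lowess curve (span 0.3) of centred log2 CPM on log2 length in each library. Coordinates and promoters are RefSeq, GRCm38.p6, matched by gene ID for 17461 genes. Alternatives used DESeq2 1.42.0, limma 3.58.1 (voom), other filters and scalings, a replicate block, and each library left out. The workflow was tested on simulated data.

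The comparison, its members and the gene lists were chosen with earlier results of these data known; lists are described by counts and medians, with no test of their own. Genes were named as the 15 largest changes and 5 smallest p in each direction (past the threshold, at least 5 CPM in the higher group, no overlap), plus called list members and 4 markers; several uncalled list members were picked after their values were seen. Unnamed gene models were not named. Samples of the liver and their table were not used. The values of 1 called gene are not reported here.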

Additional observations from a re-analysis of the deposited data

How the results depend on the processing

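Against 462 genes past the threshold (236 higher, 226 lower), DESeq2 called 1130 (561 and 569), a fit without robust estimation 143 (79 and 64), and all 12 heart libraries 0 (0 and 0; 1564 at an unadjusted p under 0.05, smallest adjusted p 0.131). RLE scaling, upper-quartile scaling, voom, both other filters and the 12 libraries without VS 1 gave 375 to 678 calls. Leaving out 1 library gave 0 to 341 (0 to 215 higher, 0 to 126 lower): 4 without LV 1 (C4b, Hbb-bt, Hbb-bs, Wdfy1), 341 without LV 2, 2 without LV 3 (Wdfy1, Ctsh), 73 without OR 1, 4 without OR 2 (C4b, Zrsr1, Tnni3, Wdfy1) and 0 without OR 3. Length correction left 5 (3 and 2), length and GC correction 16 (8 and 8), 12 of them shared with the 462, and length correction without LV 1 left 0 (1237 at an unadjusted p under 0.05); these 3 were added after seeing the data. With the replicate number as a block 1394 genes passed (642 and 752). Deviations of same-numbered libraries from their group means correlated at 0.057, 0.075 and 0.010. In the other pairs of an LV and an OR library the correlations ran from -0.087 to 0.032. Such small values cannot decide whether same-numbered libraries share an animal or a batch, and the labels state no pairing. Over 140 genes and 19 alternatives, 1507 of 2657 comparisons kept their side of the threshold, 1123 fell below it and 27 rose above it. The sign was opposite in 10 comparisons, all of genes past the threshold in neither fit, and none of the 112 called genes changed sign. With 3 libraries a group, an exact two-sided permutation test cannot go below 0.1, and the levels of the weakest genes rest on few counts.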
